A study of Mus musculus with 8 samples.

Results

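The unfolded protein response and secretory stress genes described here are 10 mouse genes, Ern1, Ern2, Xbp1, Atf4, Atf6, Ddit3, Hspa5, Hsp90b1, Creb3l1 and Nupr1. They were chosen by symbol from the 45706 genes of the count tables, and all 10 passed the filter on low counts that left 14491 genes for the test. RNA was sequenced from freshly isolated small intestinal (SI) and colonic (COL) crypts of wild type C57BL/6N mice, with 4 SI and 4 COL libraries. Each of 4 donor mice, 2 female (mice 1 and 5, replicates 1 and 4) and 2 male (mice 2 and 3, replicates 2 and 3), gave 1 library of either tissue, and ages were not given in the labels. Per the study's methods, the SI crypts came from the proximal part after the villi had been scraped off, and crypts of both tissues were released with EDTA, at a different concentration and for a different time in SI and COL, so that isolation and tissue cannot be told apart. The question of the comparison was how untreated SI and COL crypts differ in their expression.

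Proteins that are secreted or sit in membranes are folded in the endoplasmic reticulum (ER), and the unfolded protein response adjusts its capacity to the load. IRE1, encoded by Ern1 in most tissues and by Ern2 in mucus-secreting epithelia, splices the Xbp1 mRNA, PERK (Eif2ak3) slows translation and favours ATF4, and ATF6 is cut in the Golgi to release a transcription factor. Goblet and Paneth cells make large amounts of secreted protein and depend on this system.

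Of the 10 genes, Nupr1, Creb3l1 and Ern2 were higher in COL crypts, Ddit3 was higher in SI crypts, and 6 did not pass the test. The 3 COL-high genes differed by 67.3-fold, 20.8-fold and 9.15-fold, whereas Ddit3 differed by 2.41-fold. The shared sensors and the general transducers Ern1, Xbp1, Atf4 and Atf6 had adjusted p-values of 0.186 or above. With edgeR's quasi-likelihood test and an adjusted p below 0.05, the background was 28.4% of the 14491 genes called, 15.5% higher in SI and 12.9% higher in COL, against 4 of the 10 genes called here, 1 and 3 by direction. The ranges of the SI and COL libraries did not overlap for 5 of the 10 genes, and for 33.5% of all genes. The median log2 fold change (SI over COL, as throughout) was 0.10 over the 10 genes and -0.09 over all genes.

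**Figure D1:**
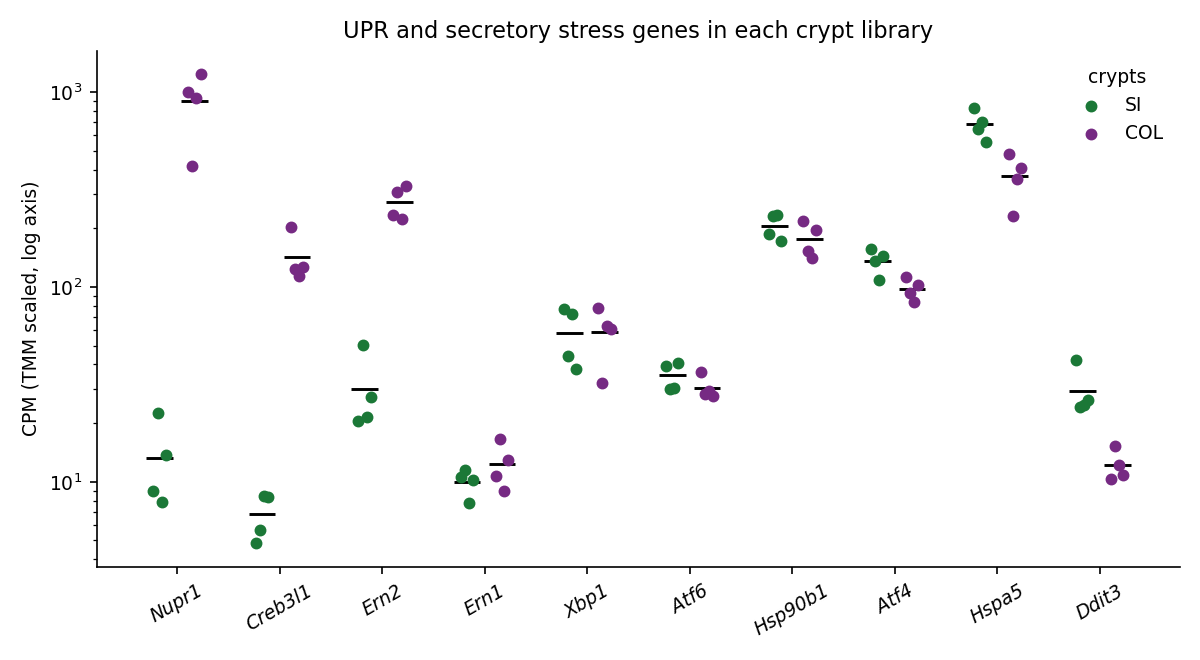
Expression of the 10 genes in each library, as CPM (read counts scaled to a common library size with TMM) on a log axis, with 4 SI libraries in green and 4 COL libraries in purple and a bar at the mean of each group. Nupr1, Creb3l1 and Ern2 lie higher in every COL library than in any SI library, Ddit3 and Hspa5 lie higher in every SI library, and the groups overlap for the other genes.

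Libraries held 15969428 to 32908060 counts. The share of counts from mitochondrially encoded genes was 22.7% to 50.8% in 4 libraries (SI replicates 2 and 3, COL replicates 1 and 2) and 4.83% to 7.35% in the other 4, and so cut across the tissues. The labels of the tissues were checked against marker genes. All 8 SI enterocyte markers were higher in SI, with a summed level of 49938 to 122297 CPM in SI and 321 to 1093 CPM in COL, and 5 of 8 colonocyte markers were higher in COL while 2 were higher in SI. The summed colonocyte level overlapped between the tissues, at 5364 to 12576 CPM in SI and 6569 to 36882 CPM in COL. As these are bulk samples, fewer cells of a type and less RNA per cell cannot be told apart.

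The promoters of Hspa5, Hsp90b1 and Nupr1 carry the sequence elements through which the response is known to act, and their stretches are shown here for that reason. The ER stress response element, bound by ATF6 with NF-Y, was searched as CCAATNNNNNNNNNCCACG on both strands, and the amino acid response element, bound by ATF4 with C/EBP partners, as TGATGCAA on both strands. RefSeq promoter windows (GRCm38.p6, 250 bases before to 50 after the start) were found for 7 of the 10 genes, and there was none for Ern2, Atf6 and Creb3l1. The sequences below are 5′ to 3′ on the strand of the gene, with the matched element in capitals.
Hspa5 (chr2:34771995-34772073, plus strand): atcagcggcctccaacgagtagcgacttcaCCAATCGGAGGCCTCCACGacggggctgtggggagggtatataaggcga
Hsp90b1 (chr10:86705503-86705686, minus strand): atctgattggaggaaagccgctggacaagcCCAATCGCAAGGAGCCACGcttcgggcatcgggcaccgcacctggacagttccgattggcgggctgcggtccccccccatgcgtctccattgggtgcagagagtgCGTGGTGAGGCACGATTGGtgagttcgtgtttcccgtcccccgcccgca
Nupr1 (chr7:126625543-126625610, minus strand): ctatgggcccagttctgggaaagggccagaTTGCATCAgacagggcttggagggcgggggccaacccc

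The ER stress response element began at -65 in the Hspa5 promoter, and at -212 and, on the opposite strand, at -107 in that of Hsp90b1, where -1 is the base before the start. It was present in 39 of 32851 promoter windows (0.119%). The amino acid response element lay at -110 of Nupr1, on the opposite strand, and was present in 0.895% of all windows. The UPR element TGACGTGG (0.676% of windows, both strands) had no match in the 7 promoters, and none of the elements matched in those of Ern1, Xbp1, Atf4 and Ddit3. Only exact matches within the windows were searched, so that elements farther from the start or with other letters were not covered. No match overlapped another. Of the 37 genes with an ER stress response element in the window, 15 were tested, of which 1 was higher in SI (Spats2l) and 1 higher in COL (Acacb), both named after their values were seen. These are 6.67% in either direction, beside 16.7% (toward SI) and 12.95% (toward COL) among the 10447 tested genes that had any window. With 15 genes nothing is read from these shares. The median log2 fold change was 0.23 and -0.03, respectively.

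The 2 IRE1 genes were considered first. Ern1 (chromosome 11, 106394650 to 106487852, GRCm38) is the IRE1 of most cell types. Its CPM was 10.6, 11.5, 7.76 and 10.2 in SI replicates 1 to 4, and 10.6, 16.5, 9.01 and 13 in COL replicates 1 to 4. The groups overlapped, and the log2 fold change was -0.30 ± 0.29 (SE; adjusted p = 0.484). The COL library was the higher one in 4 of 4 mice, though barely in replicate 1 (10.65 against 10.55 CPM). Ern2 (chromosome 7, 122169893 to 122186207), the IRE1 gene of goblet cells, gave 20.6, 50.2, 21.4 and 27.3 CPM in SI, and 233, 307, 222 and 329 CPM in COL. Every COL library was higher than every SI library, and SI replicate 2 was the highest of the SI libraries. The means were 29.9 ± 13.9 and 273 ± 53.3 CPM (SD, n = 4 each), and the log2 fold change was -3.19 ± 0.37 (SE; adjusted p = 9.96e-05). The difference was -3.03 among libraries with a high and -3.51 among those with a low mitochondrial share, as differences in mean log2 CPM.

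The balance of the IRE1 genes was also taken within each library, where it does not depend on the scaling between libraries. Divided by exon length, Ern2 reads exceeded Ern1 reads 5.37, 12, 7.62 and 7.40 times in SI replicates 1 to 4, and 60.4, 51.3, 67.9 and 69.9 times in COL. The log2 ratio averaged 2.96 ± 0.48 in the SI and 5.95 ± 0.20 in the COL libraries (SD, n = 4 each), with a difference of -3.0 (two-sided exact permutation test, p = 0.0286, adjusted over 3 ratios p = 0.0286, the smallest that 4 against 4 libraries allow). All 4 mice had the lower ratio in SI. Ern2 made up 88.3 ± 3.26% of the summed Ern1 and Ern2 level in SI and 98.4 ± 0.23% in COL. That summed level, in CPM per kb of exon, averaged 11.3 ± 4.81 over the SI and 93.6 ± 18.3 over the COL libraries. Hence Ern2 was the more abundant IRE1 mRNA per length in every library of either tissue.

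Xbp1 (chromosome 11, 5520659 to 5525893) is the mRNA that IRE1 splices, and gene counts do not separate the spliced from the unspliced form. Its CPM was 76.6, 44.0, 72.7 and 37.7 in SI and 77.7, 32.0, 63.4 and 60.8 in COL. The ranges coincided almost entirely, and the log2 fold change was -0.02 ± 0.34 (SE; adjusted p = 0.974). With this error, a moderate difference in either direction was not detectable with these libraries. Atf6 (chromosome 1, 170704674 to 170867771), the sensor that is released by proteolysis, gave 39.5, 29.8, 30.5 and 40.9 CPM in SI and 36.7, 28.2, 29.3 and 27.5 CPM in COL. Its log2 fold change was 0.21 ± 0.23 (SE; adjusted p = 0.545), with overlapping groups, although the SI library was the higher one in 4 of 4 mice. Eif2ak3, which encodes the sensor PERK, averaged 11.8 ± 4.98 CPM in the SI and 10.8 ± 2.86 CPM in the COL libraries (SD, n = 4 each; edgeR adjusted p = 0.835).

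Atf4 (chromosome 15, 80255184 to 80257541) encodes the transcription factor that is translated when eIF2 is phosphorylated. It gave 157, 136, 109 and 144 CPM in SI and 112, 93.2, 83.5 and 102 CPM in COL. The SI library was higher in 4 of 4 mice, but SI replicate 3 was below COL replicate 1, and the log2 fold change of 0.48 ± 0.25 (SE) did not pass the test (adjusted p = 0.186). Ddit3 (chromosome 10, 127290774 to 127296288) encodes CHOP, a target of ATF4 and a mediator of cell death under lasting ER stress. Its CPM was 42.0, 24.3, 24.8 and 26.1 in SI, and 10.4, 15.3, 12.2 and 10.9 in COL. SI replicate 1 was far above the other SI libraries, and the groups did not overlap. The means were 29.3 ± 8.49 and 12.2 ± 2.21 CPM (SD, n = 4 each), and the log2 fold change was 1.27 ± 0.28 (SE; adjusted p = 0.0052). Without SI replicate 1 it was 1.06 (adjusted p = 0.0127), and with scaling by library size alone 0.54 (adjusted p = 0.12). This replicate also held the lowest summed levels of the stem cell markers, 34.5 CPM beside 225 to 322 CPM in the other SI libraries, and the highest of the SI enterocyte and of the T cell markers. Its Paneth cell sum (608 beside 1906 to 4669 CPM) and proliferation sum (116 beside 294 to 481 CPM) were the lowest of SI. Its goblet cell sum was the highest (10748 beside 2771 to 7995 CPM). The part of these cell types in the Ddit3 value was not tested.

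**Figure D2:**
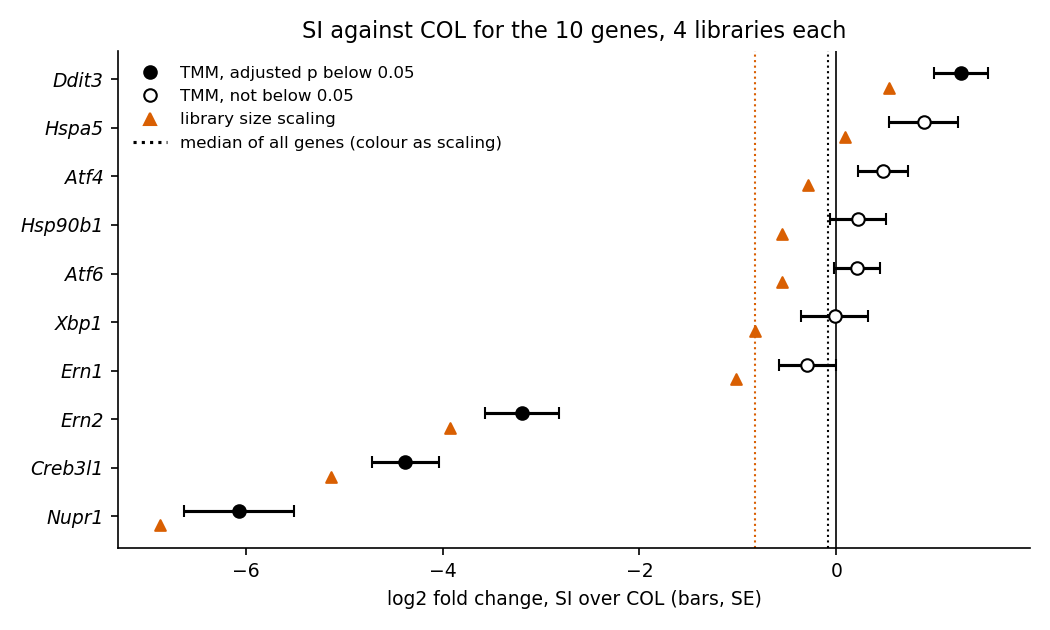
Log2 fold changes of the 10 genes, SI over COL, from 4 libraries each, with circles and SE bars for TMM scaling (filled where the adjusted p is below 0.05) and triangles for scaling by library size. Dotted lines mark the median of all genes, which is -0.09 with TMM and -0.82 with library size scaling, so that the triangles lie to the left of the circles throughout.

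Within a library, Ddit3 reads per kb of exon were 0.369, 0.245, 0.314 and 0.251 of those of Atf4 in SI, and 0.127, 0.226, 0.201 and 0.146 in COL. The lowest SI value thus lay above the highest COL value, and SI was higher in 4 of 4 mice. The log2 ratio differed by 0.77 between the tissues (two-sided exact permutation test, p = 0.0286, adjusted p = 0.0286). Ddit3 shares 68 bases of exon (3.97% of its exon length) with Mars on the opposite strand, and whether the counting used strand was not given in the sources used here, so that reads in that stretch cannot be assigned to either gene. A second protein-coding entry of the annotation, also named Ddit3 and on the same strand, shares 105 bases (6.13%). It was not among the counted genes. The 3 genes whose log2 CPM followed Ddit3 most closely over the 8 libraries were Strn (Pearson r = 0.993), Epb41l4b (0.984) and Antxr2 (0.984), out of 7812 genes whose mean log2 CPM reached 3, and all points share the same libraries and depth. Each of these 3 genes was also called higher in SI (log2 fold changes 0.76, 1.07 and 1.66), so that the tissue difference itself enters each r.

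Hspa5 (chromosome 2, 34771970 to 34777547) encodes BiP, the main Hsp70 chaperone of the ER and a standard readout of the response. It gave 831, 645, 705 and 554 CPM in SI and 482, 232, 359 and 407 CPM in COL. The groups did not overlap, COL replicate 2 being the lowest, and SI was higher in 4 of 4 mice. Even so, the log2 fold change of 0.89 ± 0.35 (SE) did not pass the edgeR test (adjusted p = 0.0793). It did pass with DESeq2 (adjusted p = 0.0168), with limma-voom (0.045) and with the mitochondrial share as a covariate (0.0317), and it did not pass with the donor mouse as a replicate block (0.114), without a filter on low counts (0.303) or with library size scaling, where the log2 fold change was 0.088 (0.875). Hsp90b1 (chromosome 10, 86690209 to 86705509) encodes GRP94, the Hsp90 chaperone of the ER. Its CPM was 187, 230, 235 and 172 in SI and 219, 153, 141 and 195 in COL. The groups overlapped (log2 fold change 0.22 ± 0.28 SE, adjusted p = 0.604), and 10.3% of its exon length is shared with the antisense pseudogene 1810014B01Rik.

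The genes of both chaperones carry the ER stress response element, and its part in their levels was not tested. The balance between the 2 chaperones differed between the tissues. Hspa5 reads per kb of exon exceeded those of Hsp90b1 4.22, 2.67, 2.86 and 3.07 times in SI replicates 1 to 4, and 2.10, 1.44, 2.42 and 1.99 times in COL. All SI values were above all COL values. The log2 ratio averaged 1.66 ± 0.29 in the SI and 0.97 ± 0.32 in the COL libraries (SD, n = 4 each), with a difference of 0.69 (two-sided exact permutation test, p = 0.0286, adjusted p = 0.0286).

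Creb3l1 (chromosome 2, 91982328 to 92024502) encodes OASIS, a membrane-bound transcription factor of the CREB3 family that is released by proteolysis and serves secretory cells. Its CPM was 4.85, 5.68, 8.42 and 8.33 in SI, and 204, 124, 113 and 127 in COL. COL replicate 1 stood above the other COL libraries, and the groups were far apart. The means were 6.82 ± 1.83 and 142 ± 41.6 CPM (SD, n = 4 each), with a log2 fold change of -4.38 ± 0.34 (SE; adjusted p = 1.28e-05). In SI the gene was still counted, with 94 to 182 reads per library.

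The 4 other genes of the CREB3 family also differed between the tissues, in opposite directions. Creb3l4 was the higher one in COL (log2 fold change -3.44 ± 0.37 SE, adjusted p = 6.26e-05). Creb3l3, which activates genes of lipid and glucose metabolism in liver and intestine, was higher in SI by 6.48 ± 0.57 (SE; adjusted p = 1.86e-05) and Creb3l2 by 4.33 ± 0.37 (SE; adjusted p = 1.8e-05). Creb3 differed by 1.28 (adjusted p = 0.0393), a call that was lost with library size scaling (log2 fold change 0.47, adjusted p = 0.403) and when any of SI replicates 1, 3 or 4 or COL replicates 1 or 2 was left out. Per kb of exon, Creb3l3 made up 77.8 ± 3.33% of the summed level of the 5 genes in SI and 2.93 ± 1.54% in COL. Creb3l1 made up 0.725 ± 0.285% in SI and 46.0 ± 14.6% in COL, and Creb3l4 0.884 ± 0.098% and 28.9 ± 7.90%. The family member with the highest level was Creb3l3 in all 4 SI libraries, whereas in COL it was Creb3l1 in replicates 1, 2 and 3 and Creb3l4 in replicate 4.

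**Figure D3:**
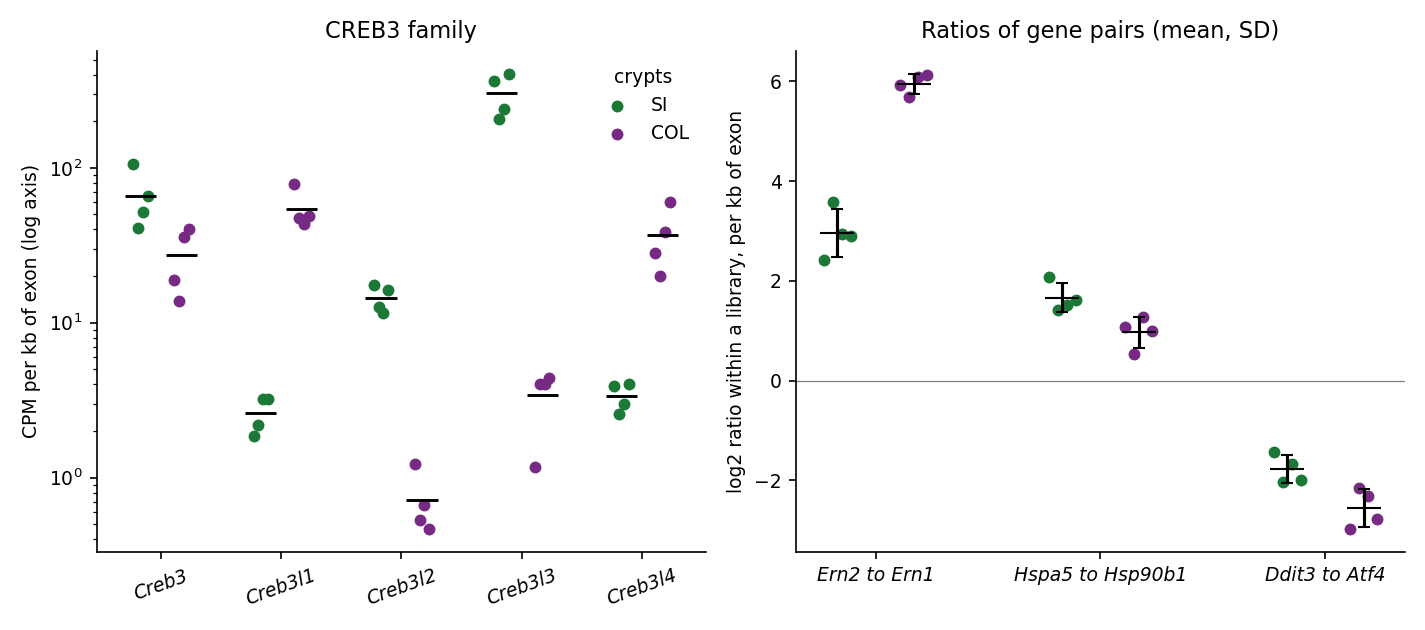
Left, levels of the 5 CREB3 family genes in each library as CPM per kb of exon on a log axis, with bars at the group means. Right, log2 ratios of 3 gene pairs within each library (points) with mean and SD (bars), in SI (green, n = 4) and COL (purple, n = 4), where no SI value lies within the COL range for any pair.

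Nupr1 (chromosome 7, 126623249 to 126630861) encodes a small nuclear stress protein that is induced by ATF4. Its CPM was 9.01, 22.6, 7.86 and 13.8 in SI, and 1002, 415, 929 and 1234 in COL. The lowest COL library, replicate 2, was still far above the highest SI library, replicate 2 of SI. The means were 13.3 ± 6.70 and 895 ± 345 CPM (SD, n = 4 each), and the log2 fold change of -6.07 ± 0.56 (SE; adjusted p = 2.48e-05) was the lowest of the 10 genes. Mean log2 CPM differed by -5.59 between SI and COL libraries with a high mitochondrial share and by -6.58 between those with a low share. The genes that followed Nupr1 most closely over the 8 libraries were 2610528A11Rik, Plet1 and Ffar2 (Pearson r = 0.994, 0.993 and 0.993), and each of them was also higher in COL. With libraries this far apart by tissue, a high r follows from the tissue difference itself, so that this shared direction adds no information.

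Per kb of exon, the order of the 10 genes was not the same in SI and COL. In SI it was Hspa5 (162 ± 27.4 CPM per kb, SD, n = 4), Atf4 (57.8 ± 8.63), Hsp90b1, Xbp1, Ddit3, Ern2, Nupr1, Atf6, Creb3l1 and Ern1 (1.22 ± 0.20). In COL it was Nupr1 (356 ± 137), Ern2 (92.1 ± 18), Hspa5 (87.5 ± 24.9), Creb3l1 (54.6 ± 16), Hsp90b1, Atf4, Xbp1, Ddit3, Atf6 and Ern1 (1.5 ± 0.40). Nupr1 was thus at place 7 of 10 in SI and at place 1 in COL, and Creb3l1 at places 9 and 4. In SI only the steps from Hspa5 to Atf4, from Hsp90b1 to Xbp1 and from Creb3l1 to Ern1 had ranges that did not overlap. In COL the steps from Nupr1 to Ern2 and from Atf4 down to Ern1 did not overlap, whereas Ern2, Hspa5, Creb3l1, Hsp90b1 and Atf4 each overlapped their neighbour in that order.

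Markers of secretory cells moved with the COL-high genes in part. Of 8 goblet cell markers, Muc2, Spdef, Spink4 and Retnlb were higher in COL and Tff3, Fcgbp, Clca1 and Zg16 did not pass the test, and none was called higher in SI. Of the uncalled markers, Tff3 (log2 fold change 0.86), Fcgbp (0.66) and Zg16 (0.88) pointed to SI and Clca1 (-0.79) to COL. The summed level of the 8 markers was 2771 to 10748 CPM in SI and 11972 to 21176 CPM in COL, and none was at 0 in all libraries of a group. Muc2 alone gave 379 to 988 CPM of this sum in SI and 7718 to 16197 CPM in COL. Agr2, a disulfide isomerase needed for Muc2 folding, gave 205, 102, 204 and 298 CPM in the SI and 3192, 845, 2795 and 4666 CPM in the COL libraries (log2 fold change -3.83 ± 0.61 SE, adjusted p = 0.000801). Of 8 Paneth cell markers 6 were higher in SI, with a summed level of 608 to 4669 CPM there and 25.2 to 96.1 CPM in COL. Of 7 tested plasma and B cell markers 1 (Sdc1) was higher in COL, with a summed level of 55.6 to 81.4 CPM in SI and 77.9 to 146 CPM in COL. T cell markers were higher in SI for 2 of 5 tested, with a summed level of 25.8 to 95.9 CPM in SI, the highest in replicate 1, and 5.78 to 32.9 CPM in COL. Of 7 pancreatic acinar markers only Cela1 passed the filter, and it was higher in COL. Their summed level was 9.37 to 16.9 CPM in SI and 79.6 to 209 CPM in COL, and 3 of the 7 were at 0 in every COL library. The part of these cell types in the values of the 10 genes was not tested.

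**Figure D4:**
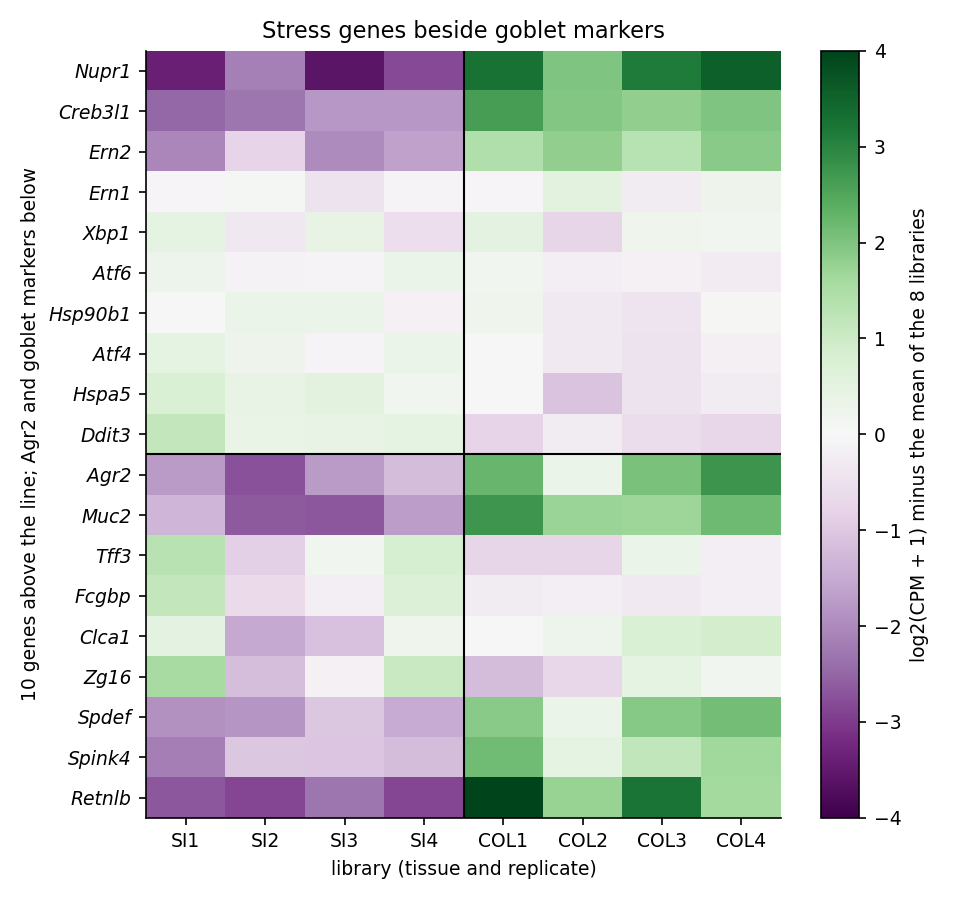
Deviation of each library from the mean of the 8 libraries, as log2(CPM + 1), for the 10 genes (above the line) and for Agr2 and 8 goblet cell markers (below), with green for higher and purple for lower and colours ending at -4 and 4. Nupr1, Creb3l1, Ern2, Agr2, Muc2, Spdef, Spink4 and Retnlb are green in the COL columns, while Tff3, Fcgbp, Clca1 and Zg16 vary among the libraries of SI.

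Other genes of the response were taken from lists by branch. Of 126 tested genes, 28 were higher in SI, 18 were higher in COL and 80 did not pass the test, with a median log2 fold change of 0.20. That is 22.2% higher in SI and 14.3% higher in COL, beside 15.5% and 12.9% of all genes. These counts depended on the scaling, being 9 and 36 with library size alone (7.14% and 28.6%, beside 7.69% and 33.01% of all genes), and against those shares the list did not stand out. Among 8 sensors and their regulators, Wfs1, Tmem33 and Tmbim6 were higher in SI and none in COL (median 0.06), while with library size scaling none was higher in SI and 1 in COL. Tmbim6, a suppressor of cell death in the ER membrane, averaged 7474 ± 2944 CPM in the SI and 1960 ± 1283 CPM in the COL libraries (SD), and its call (adjusted p = 0.0458) was lost with the replicate block (adjusted p = 0.0684). This count was 1 without SI replicate 1, SI replicate 4 or COL replicate 1, and 2 without any of SI replicates 2 or 3 or COL replicates 2 or 4. Among 10 genes of the eIF2 kinases and their control 2 were higher in either tissue (0 in SI and 4 in COL with library size scaling; median 0.23). Ppp1r15b, the constitutive regulator of the eIF2 phosphatase, was higher in SI by 1.44 ± 0.25 (log2, SE; adjusted p = 0.00145), as was the kinase gene Eif2ak1 by 1.02, and both calls were lost with library size scaling (0.69 and 0.29, adjusted p = 0.0725 and 0.412), while Eif2b1, a subunit of the eIF2 exchange factor, was higher in COL (log2 fold change -1.38, adjusted p = 0.00507). Without SI replicate 4 or COL replicate 4 the count higher in SI was 1.

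The targets of ATF4 and CHOP were called in both directions, with more of them higher in COL. Of 29 tested, 5 were higher in SI and 8 in COL (2 and 12 with library size scaling), with a median of -0.40. That is 44.8% called, beside 28.4% of all genes (15.5% higher in SI and 12.9% in COL). The median of all genes was -0.09, and the list stayed below the all-gene median of the same fit in every alternative. The list as a whole was not tested. Slc3a2, the heavy chain of amino acid exchangers, was higher in SI (395 ± 82.5 against 23.8 ± 5.02 CPM; log2 fold change 4.05, adjusted p = 1.5e-05). Slc7a5, its light chain partner, was higher in COL (log2 fold change -2.39, adjusted p = 0.0108). Aldh18a1, of proline synthesis, was higher in SI by 2.03 (adjusted p = 0.0108), a call lost with library size scaling (1.19, adjusted p = 0.092). Phgdh, the first enzyme of serine synthesis, and the tryptophan tRNA synthetase gene Wars were higher in COL, with log2 fold changes of -2.12 (adjusted p = 0.0183) and -1.30 (adjusted p = 0.00427). Trib3, a CHOP target, ranged from 15.8 to 52.6 CPM in SI and from 0 to 0.586 CPM in COL, and Stc2, a secreted glycoprotein gene, from 0 to 0.275 CPM in SI and from 12 to 19.1 CPM in COL. Slc7a5, Trib3 and Stc2 were picked after their values were seen. The count higher in SI was 3 without SI replicate 4.

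Of 28 tested targets of IRE1 and XBP1, 5 were higher in SI and 2 in COL (2 and 4 with library size scaling), with a median of 0.37. That is 25% called, beside 28.4% of all genes (15.5% higher in SI and 12.9% in COL). The genes of the coat of vesicles that leave the ER, Sec24d and Sec31a, were higher in SI by 3.20 ± 0.38 and 2.15 ± 0.35 (log2, SE; adjusted p = 0.000108 and 0.000802), at 399 ± 158 against 43.3 ± 10 CPM for Sec24d. Sec11c, of the signal peptidase, was higher in COL (-1.35, adjusted p = 0.0107), as was Srp19, of the signal recognition particle (-0.68, adjusted p = 0.0471, and 0.077 with the replicate block). The Srp19 call was also lost when any library other than COL replicate 2 was left out. Golgb1, of the Golgi matrix, was not called (-1.29, adjusted p = 0.0704), but it was with the replicate block (adjusted p = 0.0413). The count higher in COL was 1 without SI replicates 1, 3 or 4 or COL replicates 1 or 4.

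Of 28 ER chaperones and folding enzymes, 3 were higher in SI and 5 in COL (2 and 12 with library size scaling), with a median of -0.01. That is 28.6% called, beside 28.4% of all genes. They differed among the disulfide isomerases. P4hb, which encodes the classical isomerase PDI that is also a subunit of the lipid transfer protein of enterocytes, averaged 4803 ± 1610 CPM in the SI and 677 ± 308 CPM in the COL libraries (log2 fold change 2.83 ± 0.56 SE, adjusted p = 0.00301), and Erp44 was higher in SI by 1.45 (adjusted p = 0.00381, lost with library size scaling at 0.65, adjusted p = 0.148). Manf, an ER stress-induced secreted factor, was not called (0.74, adjusted p = 0.196), but it was with the replicate block (adjusted p = 0.0405). Agr2 and Pdia5 were higher in COL, Pdia5 with 8.51 ± 4.50 CPM on average in SI libraries and 63.1 ± 21.6 CPM in COL libraries (log2 fold change -2.89, adjusted p = 0.00125). Of 19 tested genes of ER-associated degradation, 7 were higher in SI and none in COL (1 and 2 with library size scaling), with a median of 0.46. That is 36.8% called, beside 15.5% of all genes higher in SI and 12.9% higher in COL. With library size scaling these shares of all genes were 7.69% and 33.01%. Sel1l, the partner of the ligase Hrd1, was higher in SI by 1.43 ± 0.26 (log2, SE; adjusted p = 0.00177) and Derl1 by 1.20 (adjusted p = 0.0136, lost with library size scaling at 0.39, adjusted p = 0.388). Ube2j1 and Nploc4 differed by 0.90 and 0.65 (adjusted p = 0.0294 and 0.0423), and both calls were lost with the replicate block (0.0673 and 0.078). The Nploc4 call was also lost without any 1 of the 8 libraries, and that of Ube2j1 without SI replicates 1 or 4 or COL replicates 1, 3 or 4. With library size scaling Ube2j1 was not called (0.17) and the direction of Nploc4 flipped, to -0.10. The count of 7 was 2 without SI replicate 1, SI replicate 4 or COL replicate 1, and 4 without SI replicate 3.

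**Figure D5:**
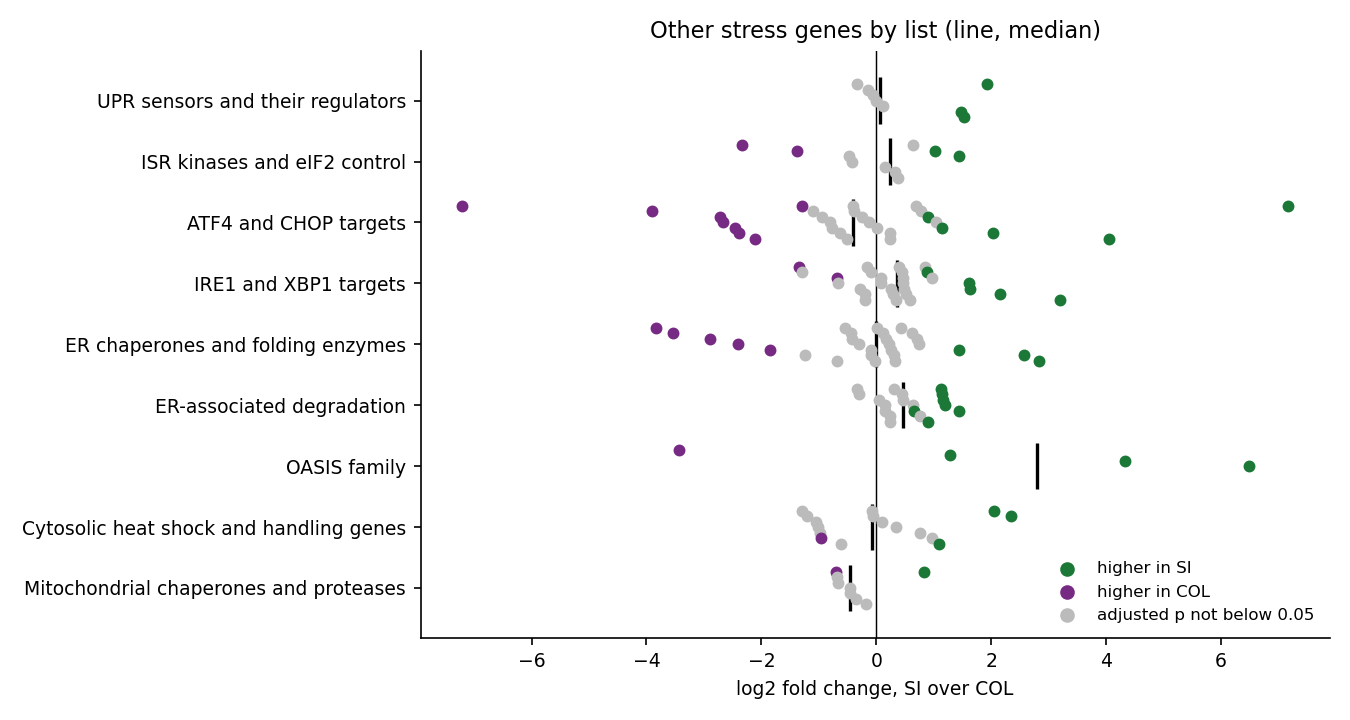
Log2 fold changes, SI over COL, of the other tested genes of the response and of 2 lists of stress genes outside the ER, 1 point a gene and 1 row a list, coloured where the adjusted p is below 0.05, with a line at each median. The called genes of ER-associated degradation all lie to the right, and those of ATF4 and CHOP targets, ER chaperones and the OASIS family (the CREB3 genes other than Creb3l1) lie on either side of 0.

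Of 2 lists of stress genes outside the ER, 25% of the tested genes were called in each, beside 28.4% of all genes. Of 16 tested cytosolic heat shock and handling genes, 3 were higher in SI and 1 in COL (2 and 5 with library size scaling), with a median of -0.07. Dnaja1, a cochaperone of Hsp70, was higher in SI by 2.34 (adjusted p = 0.000201), as were Fos, an immediate early gene that rises when tissue is handled, by 2.05 (adjusted p = 0.00242) and Dnajb1 by 1.09 (adjusted p = 0.0221). The other immediate early genes of the list were not called. Ier2 (-1.04, edgeR adjusted p = 0.0596), Egr1 (-1.21, 0.0974) and Jun (-0.62) pointed to COL, and Fosb (0.97) and Junb (0.76) to SI. A part of handling in these values was not tested. Hsf1, the regulator of the heat shock response, was higher in COL (-0.96, adjusted p = 0.0227). The call of Hsf1 was lost without SI replicates 3 or 4 or COL replicates 1, 3 or 4, and that of Dnajb1 without SI replicates 1 or 4 or COL replicate 1 and with library size scaling (0.31, adjusted p = 0.471). Of 8 mitochondrial chaperones and proteases, Yme1l1 was higher in SI and Clpp in COL (0 and 5 with library size scaling; median -0.46), and both calls were lost with the replicate block (adjusted p = 0.0613 and 0.0683). The call of Yme1l1 was also lost without SI replicates 1, 3 or 4 or COL replicates 1, 2 or 4, and that of Clpp when any library other than COL replicate 2 was left out.

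Lastly, the tissue difference was compared between the sexes. No gene was called for the interaction of sex and tissue in edgeR (0% of 14491 genes, 761 at an unadjusted p below 0.05). None of the 10 genes was below that unadjusted value, and Ddit3 came nearest (edgeR adjusted p = 0.922). With 2 mice of either sex the error was wide, with an SE of 0.54 on the log2 scale for Ddit3. In SI both male libraries had a high and both female ones a low mitochondrial share, whereas in COL either sex had both. Within SI, sex and this share cannot be told apart.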

How the data were processed

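Gene counts of 4 SI and 4 COL crypt libraries were used as the authors deposited them, as whole-number counts per Ensembl gene without normalization. Per the labels, reads were trimmed with Trimmomatic 0.36 and aligned with STAR 2.5.2b, and the builds mm9 and mm10 are both listed without a role. The study's methods name mm10 as the genome and STAR as the tool that also counted reads per gene. The strand setting of the counting was not given in the sources used here. The 2 tissue tables were joined by gene, and 45143 of 45706 genes were matched to a symbol of GENCODE vM21 (GRCm38).

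The 10 genes, the lists and the tests were chosen with earlier results of these data known. Genes were kept by filterByExpr (count minimum 10) and tested for SI against COL with edgeR 4.0.16 (R 4.3.3; TMM, glmQLFit, glmQLFTest), with Benjamini-Hochberg adjustment over all 14491 genes and a threshold of 0.05. CPM were TMM scaled, log2 CPM used a prior count of 2, and levels between genes were divided by the length of all annotated exons. The TMM factors were 0.727 to 0.798 in SI and 1.01 to 1.45 in COL. Ratios within a library were compared with a two-sided exact permutation test. Alternatives were library size scaling, DESeq2 1.42.0, limma-voom (limma 3.58.1), a block for the donor mouse, other filters, the mitochondrial share (above or below 10%) as a covariate, and leaving out each library.

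From each list, the called genes with the 2 highest and 2 lowest log2 fold changes among those with a mean log2 CPM of at least 3 were named, as were the 3 genes most correlated with the highest and the lowest of the 10 genes, Agr2 and Eif2ak3. The same replicate number marks the same mouse in the labels, so that the numbers pair the libraries. Deviations from the group means correlated at -0.24, 0.39, -0.08 and 0.33 between the tissues of replicates 1 to 4. No pair of libraries of a tissue agreed within sampling noise.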

Additional observations from a re-analysis of the deposited data

Results flagged for a closer look

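Dixon's test at its 95% critical value for 4 libraries was applied to the CPM of the 10 genes and of the genes named from the lists and to the 3 ratios, in 90 groups of 4, and it marked 5 values. Chance marks about 1 in 20 such groups. Ddit3 in SI replicate 1 (42.0 CPM) was above the other SI libraries, and Creb3l1 in COL replicate 1 (204 CPM) above the other COL libraries. Without that library the log2 fold changes were 1.06 for Ddit3 and -4.15 for Creb3l1. Among the list genes, Creb3l3 in COL replicate 1 (3.52 CPM), Derl1 in COL replicate 2 (16.9 CPM) and Sec11c in SI replicate 2 (30.03 CPM) were below the other libraries of their group.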

How the results depend on the processing

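With scaling by library size, the all-gene median of the log2 fold changes went from -0.09 to -0.82 and the calls from 4116 (2253 higher in SI, 1863 higher in COL) to 5898 (1115 and 4783). With it, Ern1 was called (-1.02), Ddit3 was not (0.54), and Atf4 (-0.29), Atf6 (-0.55) and Hsp90b1 (-0.55) changed sign, the number of the 10 genes higher in SI fell to 0, and 9 other pathway genes were higher in SI and 36 in COL. Hspa5 was called with DESeq2 (0.86), limma-voom (0.96) and the mitochondrial share covariate (0.89), which made 2 of the 10 genes higher in SI, and it was not called in the other 13 alternative fits, at 0.088 with library size scaling. Xbp1, near 0, changed sign with limma-voom (0.014). The replicate block changed no call among the 10 genes, and the calls of list genes that it changed are given with them. Leaving out each library gave the following ranges. Other pathway genes higher in SI numbered 16 to 26, with 18 without SI replicate 1 and 16 without SI replicate 4. The log2 fold change of Xbp1 ran from -0.22 to 0.15. Ern2, Creb3l1, Nupr1 and Ddit3 stayed called in all 8 fits. The log2 ratio ran from -3.20 to -2.82 for Ern2 to Ern1, from 0.54 to 0.79 for Hspa5 to Hsp90b1 and from 0.63 to 0.91 for Ddit3 to Atf4, where 3 against 4 libraries cannot give a p below 0.0571. Flipping the signs within mice as a replicate block left the ratios at -3.0, 0.69 and 0.77, with a smallest possible p of 0.125, so that neither p bears on their stability. The cause of these changes was not tested. Each of the 10 genes had at least 94 reads in each library.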
